A study of Mus musculus with 12 samples.

Results

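The regions described here carried a called peak of H3K4me3 in both libraries of adult enterocytes and in none of the other 6 libraries of mouse small-intestinal epithelium. Peaks of the 8 deposited lists were merged where they overlapped or touched, which gave 24352 regions, and 364 autosomal regions met this rule. They made up 3.33% of the 10920 autosomal regions called in both enterocyte libraries. A further 5 regions with the same pattern lay on chromosome X and were left out. The members were chosen by the presence and absence of called peaks, so their presence, length and strength in enterocytes are given as a description without a test.

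H3K4me3, trimethylation of lysine 4 on histone H3, is a mark of promoters that are active or poised, and it usually forms a short peak at a gene's start. Some promoters carry a longer domain, and such domains are known to be common at genes that define a cell type. Enterocytes are the absorptive cells of the villus and arise from Lgr5-positive stem cells at the crypt base, so a promoter that is marked in enterocytes and not in their precursors is one kind of change that differentiation can bring.

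Each of the 4 groups had 2 libraries, called biological duplicates in the design text, and the sources do not say how many animals or embryos each library held. All mice had a mixed C57BL/6 CD1 background. Embryonic epithelium at E12.5 and E14.5 was sorted as EpCAM-positive cells without CD31 and CD45, the markers of endothelium and leukocytes. Adult cells came from Lgr5EGFP-Cre-ERT males at postnatal day 60: stem cells (ISC) were sorted for high Lgr5-EGFP, and enterocytes by the same EpCAM gate as the embryonic cells. EpCAM is carried by all epithelial cells of the gut, so other epithelial types were not removed from the enterocytes by that gate. Regions are given by mm9 position; genes were not assigned because no mm9 annotation was used here, and the enterocyte identity of the cells was therefore not checked against marker genes. For the same reason a region is called neither a promoter nor an enhancer.

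The lists differed in depth. Enterocyte replicate 1 had 12821255 tags and 11650 peaks, and replicate 2 had 22137910 tags and 17007 peaks. The 6 lists in which members had to be absent came from 13355462 to 43259380 tags and held 11111 to 17658 peaks. The lists give no reads per region, so absence means that the authors' caller reported no peak there.

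The members ranged from short, weak peaks to domains several kilobases long. The median merged width was 1056 bp, with quartiles of 581 and 1860 bp and a maximum of 5962 bp. Covered length, the bp of a region under a library's peaks, had a median of 585 bp in replicate 1 (203 to 5541 bp) and 908 bp in replicate 2 (158 to 5913 bp). As the mean of both libraries, 110 members were covered over less than 500 bp, 120 over 500 to 1000 bp, 81 over 1000 to 2000 bp and 53 over 2000 bp or more. Replicate 2 covered more bp than replicate 1 in 246 of 364 members. Across members the 2 lengths had a Spearman correlation of 0.70 (n = 364 regions of the same 2 libraries, a description). In both libraries 353 members were a single peak.

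**Figure D1:**
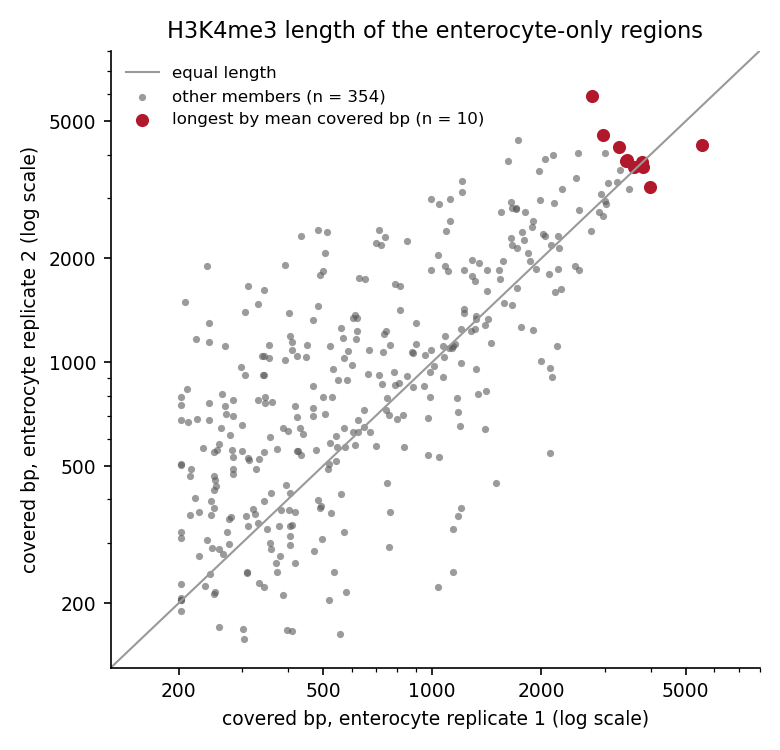
Each point is 1 of the 364 members, with its covered length in enterocyte replicate 1 on the x axis and in replicate 2 on the y axis, both in bp on log scales; the line marks equal length and red points are the 10 longest by the mean. Short members scatter widely and lie mostly above the line, while the 10 longest have at least 2763 bp in each library.

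Within the enterocyte lists the members ranked low by strength and nearer the middle by length. The caller's −log10 q against the input had a median of 3.16 in replicate 1, at the percentile 11.8 of that list, and 5.75 in replicate 2, at the percentile 30.5. By length the median percentiles were 18.2 and 43.3. Only 22 members in replicate 1 and 14 in replicate 2 ranked above the middle of their list by −log10 q, against 100 and 161 by length. Longer members were also the stronger ones. Those covered over 2000 bp or more had median −log10 q values of 7.35 and 14.2 in replicates 1 and 2, and those under 500 bp had 2.51 and 4.62. The authors' fold enrichment over input had a median of 3.84 in replicate 1 and 4.33 in replicate 2.

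The longest member lay on chromosome 17 from 34680713 to 34686329. It was covered over 5541 bp in replicate 1 and 4278 bp in replicate 2 (mean 4909.5 bp ± 893, SD, n = 2). In replicate 1 its strongest peak had rank 39 by length. In replicate 2 it held more than 1 peak, and the strongest of them had rank 413 by length. The second was on chromosome 1 from 130218982 to 130224943, with 2763 and 5913 bp (mean 4338 bp ± 2227). Its 2763 bp in replicate 1 lay in more than 1 peak. This region was more than 2 times as long in replicate 2, so its length is poorly fixed. The third, on chromosome 11 from 76289022 to 76292961, had 3795 and 3796 bp and was the most even of the 10.

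The remaining 7 of the 10 longest had means between 3600 and 3762 bp. Chromosome 11 held 3 of them. The region from 118849402 to 118853973 had 2952 and 4572 bp, that from 12308666 to 12312497 had 3433 and 3832 bp, and that from 78231968 to 78236127 had 3983 and 3217 bp. Of these 3, the last was longer in the shallower library, and its 3217 bp in replicate 2 lay in more than 1 peak. On chromosome 2, the region from 110437440 to 110441346 had 3809 and 3691 bp at modest −log10 q values of 5.95 and 6.42. On chromosome 18, the region from 84847255 to 84851473 had 3276 and 4219 bp. On chromosome 19, the region from 34700717 to 34704804 had 3608 and 3690 bp. The region on chromosome 3 from 96633619 to 96637467 had 3443 and 3849 bp and belongs to a run described below.

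Strength singled out other members. The 5 with the highest mean percentile by −log10 q, beyond those already named, were 2263.5 to 3281 bp long. The region on chromosome 7 from 53012554 to 53015272 had −log10 q values of 14.2 and 37.7 (1808 and 2719 bp). The one on chromosome 10 from 75026534 to 75029546 had 14.0 and 37.4 (2996 and 2941 bp), and the one on chromosome 19 from 4496557 to 4499461 had 15.7 and 30.6 (1655 and 2905 bp). Those 3 were the strongest members by this measure.

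The other 2 were on chromosome 1 from 88994323 to 88998353, with 32.2 in replicate 2 and rank 3478 by q in replicate 1 (2531 and 4031 bp), and on chromosome 17 from 46404508 to 46407920, with 11.3 and 33.6 (2488 and 3413 bp). In all, 15 members had a −log10 q of at least 10 in both enterocyte lists. They had a median mean length of 2280 bp and a median gap of 44.5 kb to the nearest region called in all 8 libraries, with a range of 2.79 to 182 kb. The shortest of the 15, at 359.5 bp, was on chromosome 11 from 71015953 to 71016357, and is named after its value was seen.

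At the edge of the rule the calls were weak. The file headers give a q cutoff of 0.01, a −log10 q of 2, but every list also holds weaker peaks, 3.73 to 10.6% of each, and the sources used here do not say why. Of the 364 members, 79 were weaker than that in replicate 1, 13 in replicate 2 and 8 in both, and 280 were at or above it in both. Over the whole enterocyte lists 515 of 11650 peaks (4.42%) were weaker in replicate 1 and 1688 of 17007 (9.93%) in replicate 2. The members' share of such peaks was thus above that of the list in replicate 1 and below it in replicate 2. The members with the lowest −log10 q on either side were on chromosome 5 from 119535422 to 119537328 (240 bp at 1.12 in replicate 1, against 1907 bp at 4.53 in replicate 2), on chromosome 15 from 37380822 to 37381585 (347 bp at 1.25, against 764 bp at 4.67) and on chromosome 18 from 3010106 to 3010940 (835 bp at 1.68, against 569 bp at 1.29). Just outside lay 205 regions called in both enterocyte libraries and in exactly 1 other. The weakest of these extra calls was 307 bp at 1.08 in ISC replicate 2, on chromosome 17 from 39979962 to 39981453 (542 and 1492 bp in enterocytes). The next were 965 bp at 1.15 in ISC replicate 1, on chromosome 1 from 89804914 to 89808314 (2707 and 2941 bp), and 412 bp at 1.17 in ISC replicate 2, on chromosome 6 from 48824839 to 48827084 (1129 and 1967 bp).

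The library that most often kept a region out was the deeper stem-cell library. Of the 205 regions, 178 (86.8%) had their extra call in ISC replicate 2, 17 in ISC replicate 1, 8 in E14.5 replicate 2, 1 in E14.5 replicate 1, 1 in E12.5 replicate 2 and 0 in E12.5 replicate 1. ISC replicate 2 had 25547814 tags and replicate 1 had 13355462; the part of depth in this count was not tested. In the 178, the ISC peak had a median of 408 bp, against 559.5 and 814 bp in enterocyte replicates 1 and 2, and it was shorter than both enterocyte lengths in 109. With ISC replicate 2 left out, 545 regions met the rule in place of 364. Without enterocyte replicate 1 there were 3171, since 2775 autosomal regions were called in enterocyte replicate 2 alone (median 276 bp, median −log10 q 2.09). Without enterocyte replicate 2 there were 541. Leaving out any 1 of the other 5 libraries gave 364 to 381.

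Longer members were more often kept under stricter lists. A stricter list only removes peaks, so a member is lost only where its own enterocyte peaks fall below the cut. The shares kept therefore do not show how far a member stood apart from the other cells. In lists of equal number, each cut to its 11111 strongest peaks, 474 regions met the rule, and 116 of the 364 members overlapped one of them. Of the members covered over 2000 bp or more 38 of 53 (71.7%) were kept, against 11 of 110 (10.0%) of those under 500 bp. With peaks below a −log10 q of 10 dropped from every list, 117 regions met the rule, and only 15 members were among them. The number kept was also 15 with that q required in the enterocyte lists alone. A minimum of 500 covered bp kept 193 members, including all 53 of the longest class and none of the shortest, which cannot pass it by construction.

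Regions found in both libraries of 1 group and nowhere else were not alike in length. There were 106 for ISC, 1239 for E14.5 and 3 for E12.5, with median widths of 528, 517 and 569 bp, against 1056 bp for the 364 in enterocytes. A width of 2 kb or more was reached by 81 (22.3%) of the enterocyte regions, 6 (5.66%) of the ISC regions and 3 (0.242%) of the E14.5 regions. The 174 regions called in all 4 adult libraries and in no embryonic one were wider still, at a median of 1495 bp. Over whole lists the median peak was 1158 and 1030 bp in the enterocyte lists, 1054 and 1147 bp in the ISC lists and 1279 and 1231 bp in the E14.5 lists. In lists of equal number the medians were 1382.5 bp for enterocytes (n = 474), 898 bp for ISC (n = 83), 954 bp for E14.5 (n = 78) and 1504 bp for both adult groups (n = 304). The differences between these sets were not tested.

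**Figure D2:**
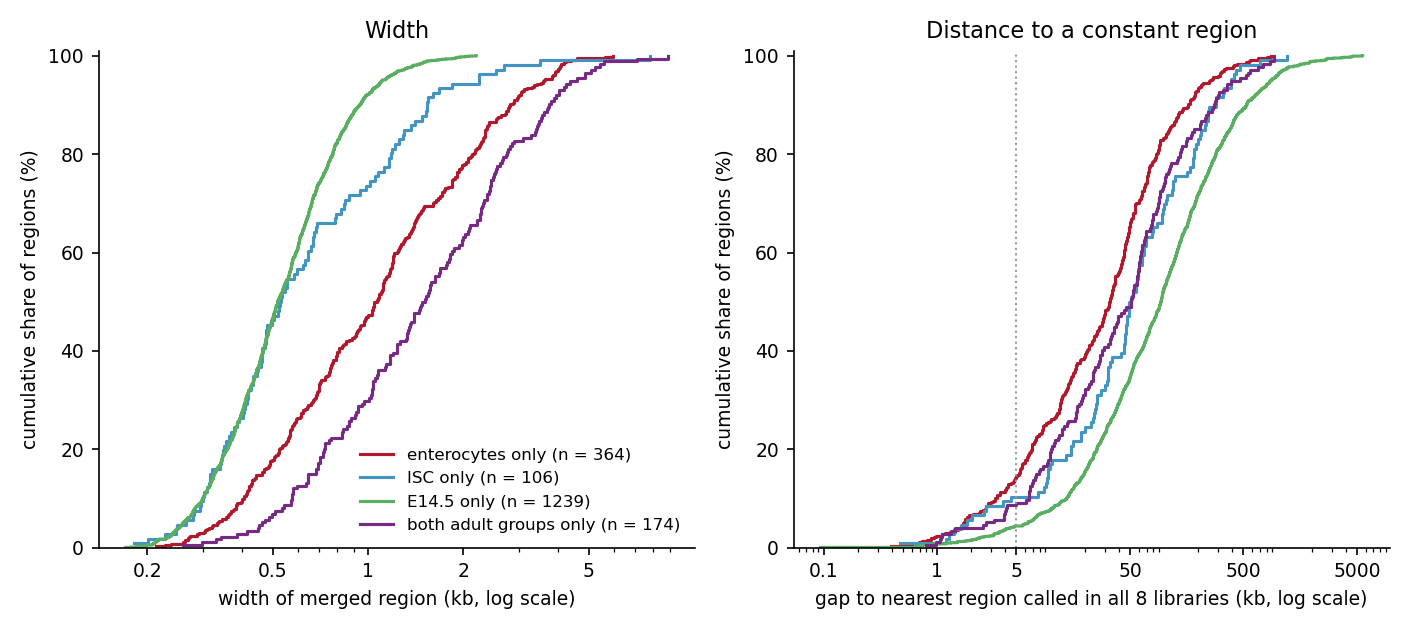
Cumulative shares of regions called in both libraries of enterocytes, ISC, E14.5 or both adult groups and in no other library, by width (left, kb, log scale) and by gap to the nearest region called in all 8 libraries (right, kb, log scale; the dotted line marks 5 kb). The enterocyte curve lies to the right of the ISC and E14.5 curves by width over most of the range, and to the left of all 3 other curves by gap at 5 kb and above for most of the range.

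Most members stood away from the regions shared by every library. Regions called in all 8 libraries, here called constant regions, numbered 8903, and the median gap from a member to the nearest was 33.0 kb, edge to edge. Of the members, 9 (2.47%) lay within 1 kb of a constant region, 44 (12.1%) at 1 to 5 kb, 185 (50.8%) at 5 to 50 kb and 126 (34.6%) farther off. Taking 5 kb as the limit for lying at the edge of a constant region, 53 members (14.6%, Wilson 95% interval 11.3 to 18.6%, for counting error only) were at such an edge, and 311 (85.4%) lay farther off. A peak that overlaps or touches a constant region is merged into it, so the rule leaves out direct extensions of constant regions. These gaps are to constant regions only, and the nearest region of any kind lay at a median gap of 7.72 kb. The smallest gap was 389 bp and the largest 870 kb.

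Among the 10 longest, only the chromosome 18 region from 84847255 lay within 5 kb of a constant region, at 2.32 kb, and the chromosome 2 region was 577 kb from one. Nearness did not rise with length: the share within 5 kb was 13.6% for members under 500 bp, 17.5% at 500 to 1000 bp, 14.8% at 1000 to 2000 bp and 9.43% (5 of 53) at 2000 bp or more, with intervals that overlap.

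The members were still closer to constant regions than other sets were. The share within 5 kb was 10.4% for the ISC regions, 4.44% for the E14.5 regions, 9.20% for the regions of both adult groups and 7.46% for all 14951 autosomal regions that were not constant. Within 50 kb it was 65.4% for the members, 50.0% for ISC, 34.5% for E14.5 and 48.9% for both adult groups. In lists of equal number the share within 5 kb was 10.1% for enterocytes, 8.43% for ISC and 9.21% for both adult groups, and 3.85% for E14.5. These differences were not tested.

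The nearest region of any kind had various call patterns. It was a constant region for 136 members (37.4%), a region of enterocyte and some embryonic libraries for 68, a region of enterocyte and ISC libraries alone for 20, and another member for 23. Of all 23602 autosomal regions 8651 were constant, which is a similar share. Shares over all regions were not counted for the other patterns, so none of these counts is read as a trait of the members. For 54 it was a region of a single enterocyte library, at a median gap of 2.25 kb, and 15 of these were within 1 kb. For 63 no enterocyte library called it. A region called in both enterocyte libraries lay within 1 kb of 26 members and within 5 kb of 84 (23.1%).

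Runs of members were short. With gaps of up to 100 kb, 283 members stood alone and 81 (22.3%, Wilson 95% interval 18.3 to 26.8%) fell into 37 runs: 32 pairs, 3 runs of 3 and 2 runs of 4. The share was 3.77% for the 106 ISC regions, 7.47% for the 174 of both adult groups and 23.0% for the 1239 E14.5 regions, but it grows with the number of regions in a set, so only sets of like size can be set side by side. The 339 regions of both embryonic stages alone are the closest in number, and 6.78% of them were in runs. Without enterocyte replicate 1 the members' share was 46.2%, over 3171 regions.

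Of the 2 runs of 4, the one with more covered bp was on chromosome 9 from 34874029 to 34906639, with 4 members in 32.6 kb. Its members had 985 and 794 bp, 2210 and 1113 bp, 573 and 323 bp, and 1755 and 1267 bp in replicates 1 and 2. The 1113 bp lay in more than 1 peak. All 4 were longer in replicate 1, the shallower library, opposite to most members. The nearest constant region, from 34923070 to 34925933, had lengths at E12.5 of 615 and 770 bp, 1456 and 1748 bp at E14.5, 925 and 1164 bp in stem cells and 2263 and 2833 bp in enterocytes. It was thus longest in enterocytes, with no overlap with any other group. Between it and the run, enterocyte replicate 2 had 3 further peaks of 159, 838 and 294 bp, the first of which lay in a region that ISC replicate 1 also called (323 bp).

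The second run of 4, on chromosome 19 from 3929016 to 4048042, was of another kind. Its members were short (500 and 792, 211 and 837, 469 and 738, and 354 and 1028 bp), all longer in replicate 2, and were spread over 119 kb among 3 constant regions and 1 called in 7 libraries. The members on chromosome 3 from 96617259 to 96639132 formed a run of 3 in 21.9 kb. The member of 3443 and 3849 bp had a short one (425 and 695 bp) after it and a region of 372 and 551 bp before it, which ISC replicate 2 also called (214 bp). The third member, whose start is 16.4 kb before that of the long one, had 265 and 278 bp. No embryonic library had a peak within 20 kb of this run, and ISC replicate 2 alone had a second one, of 727 bp.

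**Figure D3:**
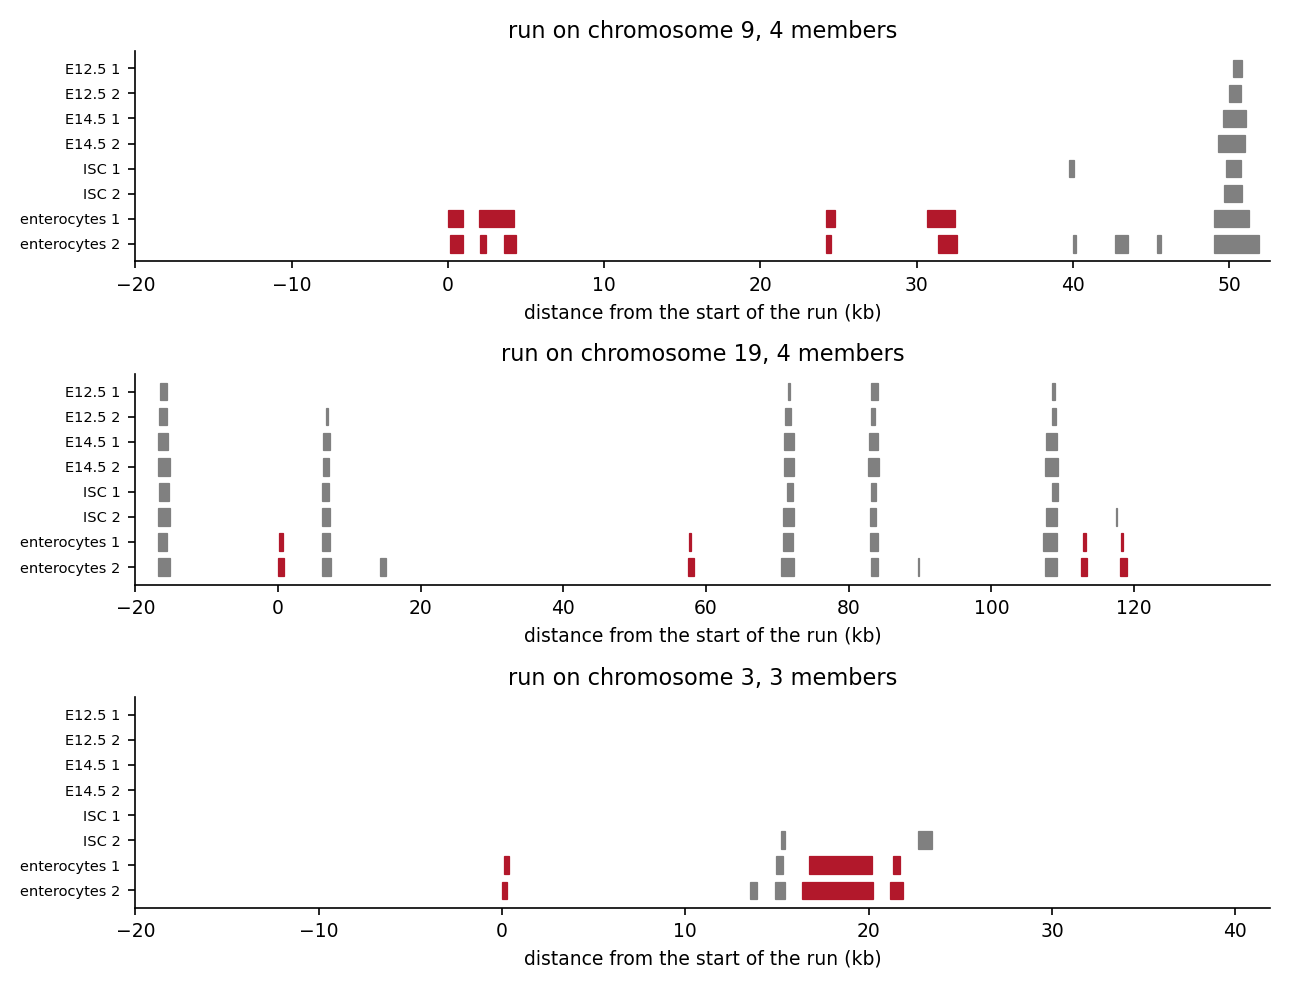
Peaks of the 8 libraries (rows) around the 3 runs with the most members, by distance from the start of the run in kb, with 20 kb on either side; red bars are peaks of members and grey bars all other peaks. The chromosome 9 and chromosome 3 runs lie in stretches without embryonic peaks, and the members of the chromosome 19 run lie between or just past regions that most libraries share.

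Members were found on every autosome. As a share of the regions called in both enterocyte libraries, they ranged from 2.45% on chromosome 13 (12 of 489, interval 1.41 to 4.24%) to 5.81% on chromosome 19 (24 of 413, interval 3.94 to 8.50%). Chromosome 11 had the most members, 40 of 954 (4.19%).

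Of the constant regions next to a member, 16 of 51 were called longer in enterocytes than at E14.5, 21 than at E12.5 and 5 than in ISC. The rule set no condition on their coverage, but it is not fully independent of it. Beside such a neighbour only enterocytes have a peak, and no peak of any library joins the neighbour to the member. The gap is also measured from a merged edge that enterocyte peaks help to set. How far this shaped the counts was not tested. Coverage was tested region by region, with limma across all 17679 regions called in at least 2 libraries. It used covered bp scaled per library, with calls made at an adjusted p of 0.05. The 53 members within 5 kb had 51 constant regions as their nearest, 2 of which each served 2 members. Against E14.5, 16 of the 51 (31.4%) were longer in enterocytes and 1 was shorter; over all 8903 constant regions 7.13% were longer and 5.49% shorter. Against E12.5, 21 (41.2%) were longer and 1 shorter, over backgrounds of 11.2% and 9.15%. Against ISC, 5 (9.80%) were longer and 1 shorter, over backgrounds of 2.83% and 1.57%. Over all 17679 regions tested, members included, 8.9% were longer and 18.2% shorter than at E14.5, 14.7% and 9.12% than at E12.5, and 4.35% and 3.17% than in ISC. All 3 comparisons share the enterocyte libraries and are not independent of each other, and the difference between the 51 and the other constant regions was not tested. In the adult groups the 51 were also longer than constant regions at large, whose medians were 1267 and 1458 bp in enterocytes and 1288 and 1520 bp in ISC. At E14.5 the medians were 1884 and 1848 bp for the 51 against 1712 and 1747 bp for all constant regions. At E12.5 they were 899 and 1255 bp against 984 and 1148 bp. The part of length in these shares was not tested.

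The sizes of these changes were moderate. The median log2 change of the 51 was 0.29 against E14.5, 0.39 against E12.5 and 0.24 against ISC, where all constant regions had -0.00, -0.05 and -0.00. The 172 constant regions nearest to a member at a gap of 5 to 50 kb lay between, at 0.10, 0.10 and 0.08, and 29 (16.9%), 36 (20.9%) and 9 (5.23%) of them were longer. The 54 constant regions nearest to an E14.5-only region within 5 kb had a median of -0.21 against E14.5, with 3 longer and 5 shorter. Of the 11 nearest to an ISC-only region within 5 kb, 4 (36.4%) were longer than at E12.5 and 0 shorter. Against E14.5 they gave 1 and 0, and against ISC 1 and 2. Of the 16 nearest to a region of both adult groups alone, 4 (25%) were longer than at E12.5 and 0 shorter. Against E14.5 these gave 2 and 1, and against ISC 1 and 1. Some of the 16 are also among the 51. Both sets are small, and their differences from the 51 were not tested. In unscaled bp, the median over the 51 was 1888 and 2225 bp in enterocyte replicates 1 and 2, 1516 and 1947 bp in stem cells, 1884 and 1848 bp at E14.5 and 899 and 1255 bp at E12.5, so that the enterocyte medians overlap those of ISC, lie just above those of E14.5 and well above those of E12.5.

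These counts rest on few libraries and, against E14.5, on the scaling. Without E14.5 replicate 1 the 16 longer became 3, and without E14.5 replicate 2 they became 4, as the background fell to 1.34% and 1.61%; without enterocyte replicate 1 they were 10. With no scaling there were 6 longer (11.8%, against 2.36% of all constant regions) and 6 shorter, and with quantile normalization 14 (27.5%, against 6.66%) and 4. Against ISC, the 5 longer became 1 when enterocyte replicate 1, ISC replicate 1 or either E14.5 library was left out, which is 1.96% of the 51 against 0.966 to 1.29% of all constant regions, and the 1 shorter became 0 without any single ISC, enterocyte or E14.5 library. Against E12.5 the count of longer regions stayed between 15 and 20 with any 1 library left out. The single shorter region against E14.5 was called only without enterocyte replicate 2, and that against E12.5 only without E12.5 replicate 2 or enterocyte replicate 1. In the main fit the shorter region was a different one in each comparison. It was on chromosome 7 from 147311452 against E14.5, and on chromosome 13 from 107736392 against E12.5 and from 59775070 against ISC. Whether the fits with a library left out called these same regions was not counted.

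**Figure D4:**
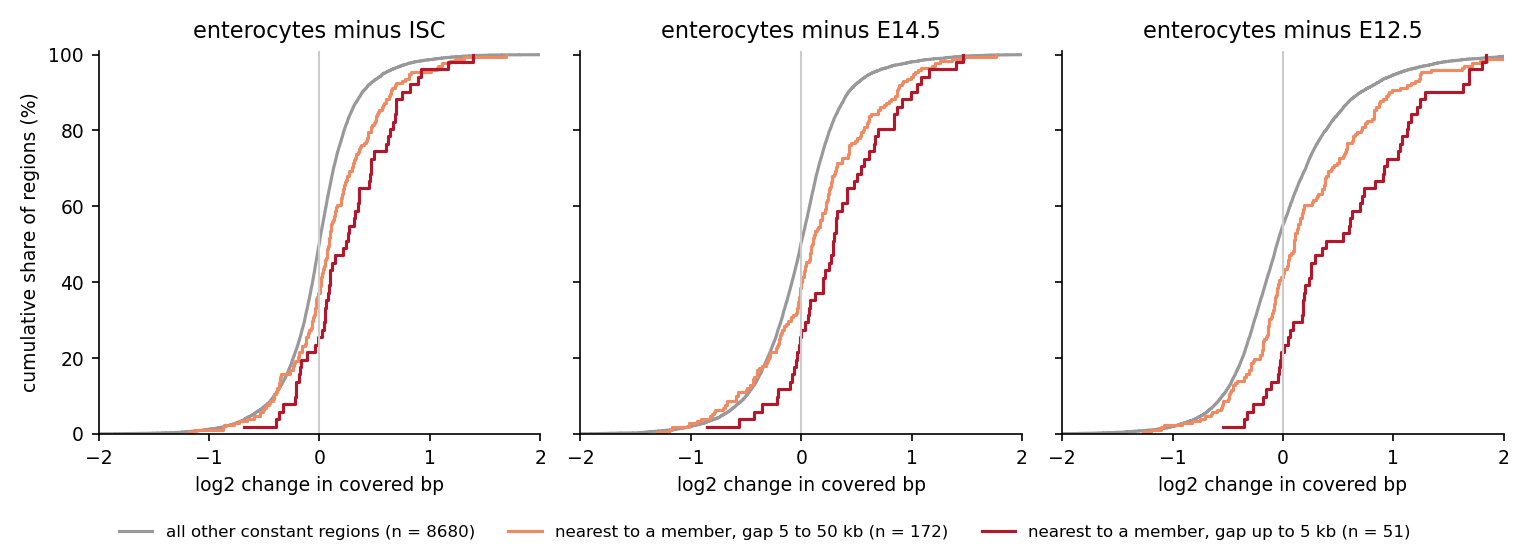
Cumulative shares of constant regions by their log2 change in covered bp, enterocytes minus ISC, E14.5 or E12.5 (x axis), for the 51 that are nearest to a member at a gap of up to 5 kb, the 172 nearest to one at 5 to 50 kb and the other 8680. In each panel the curve of the 51 is shifted to the right of the grey curve and that of the 172 lies between them over most of the range.

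Of the 5 neighbours with the largest changes against ISC among those past the threshold, 4 were longer in enterocytes. On chromosome 1, that from 187278439 to 187280479 had 572 and 542 bp in ISC against 1680 and 1798 bp in enterocytes (log2 change 1.39 ± 0.24, SE, limma adjusted p = 0.0265). It also had 1701 and 1764 bp at E14.5 and 1442 and 961 bp at E12.5, so that ISC was the low group. The region on chromosome 10 from 80217497 to 80219977 had lengths at E12.5 of 837 and 920 bp, 1664 and 1529 bp at E14.5, 904 and 1346 bp in stem cells and 1934 and 2400 bp in enterocytes (log2 change against ISC 0.89 ± 0.12, limma adjusted p = 0.0115). There the enterocyte libraries were above all others.

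On chromosome 7, the region from 26178878 to 26181337 was likewise highest in enterocytes, with lengths at E12.5 of 759 and 754 bp, 1418 and 1549 bp at E14.5, 1025 and 1441 bp in stem cells and 2165 and 2308 bp in enterocytes (0.82 ± 0.12, limma adjusted p = 0.0138). The region on chromosome 15 from 76338712 to 76342841 had 615 and 715 bp, 1850 and 1818 bp, 1685 and 2454 bp, and 2960 and 4023 bp in the same order (0.75 ± 0.12, limma adjusted p = 0.0228). The fifth, on chromosome 13 from 59775070 to 59777949, was shorter in enterocytes, at 1174 and 1286 bp against 1936 and 2416 bp in ISC (-0.69 ± 0.13, limma adjusted p = 0.0359). It had 2397 and 1989 bp at E14.5 and 1023 and 975 bp at E12.5. None of the 5 passed with every library left out in turn: the highest limma adjusted p among those fits was 0.124, 0.0583, 0.0832, 0.0719 and 0.153 in the order named. With no scaling the chromosome 10 and chromosome 15 calls were also lost (limma adjusted p = 0.0720 and 0.161).

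The position of these neighbours' edges was compared on the side that faces the member and on the far side. For each of the 53 pairs, the outermost peak edge of the neighbour was taken in every library. The pairs hold 51 neighbours, so the counts are not over distinct edges. The chromosome 3 neighbour from 63099201 has 2 members on the same side, and its edges count 2 times. The chromosome 4 neighbour from 155569545 has a member on either side, so each of its edges counts both as facing and as far. On the facing side both enterocyte edges reached farther out than both ISC edges in 24 pairs and less far in 5, with a median difference of 124 bp. On the far side the counts were 14 and 9, and the median was 3.5 bp. Against E12.5 the facing side gave 36 and 2 (median 332 bp) and the far side 32 and 4 (238.5 bp). Against E14.5 the facing side gave 18 and 16 (-60 bp) and the far side 10 and 23 (-94.5 bp). The rule bears on the facing side, where beyond the gap both enterocyte libraries have a peak and no other library has one. The far side has no such condition, except for the chromosome 4 neighbour. The difference between the sides therefore cannot be told apart from the choice of members. These edges are unscaled, and neither the counts nor the difference between the sides was tested.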

How the data were processed

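H3K4me3 ChIP-seq peak lists of 8 libraries were analysed, 2 each for E12.5, E14.5, ISC and enterocytes, grouped by sample title; the 4 inputs enter only as controls of the authors' calls. Per the file headers, peaks were called per library, not pooled, with MACS 2.0.10.20130712 in broad mode, each against 1 input that its group shared. The headers give a q cutoff of 0.01, yet the lists reach down to −log10 q values of 1.01 to 1.09, so a call here is any listed peak. Build mm9 and the tools bcl2fastq 1.8.4, SAMtools 1.2 and Bowtie 1.1.2 are listed in the submitters' processing notes. The deposited columns are peak length in bp, pileup signal, fold enrichment as a ratio, and −log10 p and −log10 q, all the authors' values for single peaks, used only to describe, rank or filter within a list. Members and lists were chosen with earlier results of these data known.

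Merging, gaps (bp between edges) and runs were computed with Python 3.11.15 and pandas 2.3.3. Where a region held several peaks of a list, the strongest gave its q, its percentiles and its ranks, also those by length. Named members are the 10 longest, the 5 strongest others, the 3 largest runs, and the 3 just inside and 3 just outside the rule; named neighbours are the 5 with the largest called change against ISC whose libraries did not overlap. The test of neighbours used R 4.3.3 with limma 3.58.1. Its values were log2(covered bp + 200), a scale that understates changes of short regions, after division by a factor per library from 0.720 to 1.28 that equalizes the medians over regions called in all 8. One model held the 4 groups, its prior following the trend with mean length (4 residual degrees of freedom), two-sided, with Benjamini-Hochberg adjustment over all regions tested. Tested on simulated data, the step found most changes of the larger sizes tried. It found only a minority at the size next above the smallest, and few at the smallest. Most of the named neighbours' changes against ISC lay between those sizes, where many changes would be missed. The smallest size was above the neighbours' median changes, so changes as small as those were not simulated. More of its calls were false than the nominal rate, so single calls near the threshold are uncertain. P-values measure only the spread between these libraries. The comparison of edges was added after the data were seen. The planned assignment to genes was not made, since the gene and promoter tables at hand are for GRCm38 and no positions were converted between builds; no sequence is printed for the same reason.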

Additional observations from a re-analysis of the deposited data

How the results depend on the processing

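The number of members was 364. It was 117 with only peaks of a −log10 q of at least 10 in every list, 15 with that q required in the enterocyte lists alone, 599 where a call needs 50% of the region covered, and 364 to 3171 with each library left out in turn. The share within 5 kb of a constant region (14.6%) was 0%, 6.67% and 2.00% under the first 3 of these, 10.1% in lists of equal number, 9.75% with at least 500 covered bp, 6.59% at 2 kb, 25.8% at 10 kb, and 11.5 to 16.5% with libraries left out. The share in runs (22.3%) was 10.3% and 0% with the 2 q rules, 15.5% with at least 500 covered bp, 12.6% and 29.4% with gaps of up to 50 and 200 kb, and 21.1 to 46.2% with libraries left out. The median covered length (781.75 bp) was 2328, 2280 and 1764.5 bp under the first 3 alternatives, 1117.5 bp in lists of equal number, 1281 bp with at least 500 covered bp, and 313 to 790 bp with libraries left out. A part of this follows from construction: a minimum of q or length removes short members. Members overlapping by at least 1 bp were kept in 328 of 364 cases when peaks were merged across gaps of up to 1 kb.

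Of the 51 neighbours, those longer than in ISC (5) were 8 with a pseudocount of 1000 bp, 3 with no scaling and 1 to 6 with libraries left out, and 14 of 223 for gaps of up to 50 kb. The 1 shorter was 2 of 48 in lists of equal number, 5 of 223 up to 50 kb, and 0 to 1 with libraries left out. Those longer than at E14.5 (16) were 6 with no scaling, 9 in lists of equal number, 45 up to 50 kb and 3 to 15 with libraries left out. Those longer than at E12.5 (21) were 13, 57 and 15 to 20 in lists of equal number, up to 50 kb and with libraries left out. The alternatives for both embryonic comparisons were chosen after seeing the data. With no scaling the median log2 change of all constant regions against E12.5 was 0.25, against -0.05 with it. With the q minimum in every list no constant region lay within 5 kb of a member, so there was no value. With the replicate block 6, 16 and 19 neighbours were longer than in ISC, at E14.5 and at E12.5; the numbers were not taken to pair the libraries, since deviations of same-numbered libraries correlated at 0.0532 to 0.237, not over 0.1 for every pair of groups. Where the cause of a change is not given, the cause was not tested.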
